A study of Mus musculus with 3 samples.

Results

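Mast cells and basophils are rare granule-bearing cells of the blood lineages that carry the high-affinity receptor for IgE and store histamine and proteases in their granules. The 10 genes described here are Mcpt8, Prss34, Cpa3, Cma1 and Tpsb2 (granule proteases), Fcer1a and Ms4a2 (subunits of the IgE receptor), Kit (the receptor for stem cell factor), Hdc (the enzyme that makes histamine) and Gata2 (a transcription factor of both lineages). They were taken from 22911 genes with a named probe as every non-control probe whose RefSeq transcript belongs to one of them, which gave 12 probes for 10 genes. All 10 genes were well above the array's background in at least 1 tumour, and 8 of 10 were in all 3 tumours.

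Total RNA came from splenic tumours of 3 male mice aged 10 weeks, with 1 single-colour Agilent array per tumour. One tumour had the genotype p53+/−, loss of 1 of the alleles of the tumour suppressor p53, and is called the p53 tumour. The 2 LSD1 × p53+/− tumours, numbered 2 and 3, are called tumour L2 and tumour L3, or together the LSD1 tumours. All 3 mice thus carried p53+/−, and no tumour or spleen of another genotype was analysed here. LSD1 is a histone demethylase. Which LSD1 allele or transgene the mice carried, which promoter or cell type drove it, and whether the number names a mouse or a line are not given in the labels. They speak both of splenic tumours and of isolated splenic cells, used without treatment, and mention no sorting.

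In mice, the bone marrow makes both lineages from precursors that express Kit, Gata2 and Cpa3. Basophils leave the marrow mature, circulate through blood and spleen, lose most Kit and use the proteases encoded by Mcpt8 and Prss34. Mast cells keep Kit and mature in tissues, where those of connective tissue store the chymases encoded by Cma1 and Mcpt4 with the tryptase encoded by Tpsb2, and those of mucosa the chymases encoded by Mcpt1 and Mcpt2. Hdc, Kit and Gata2 are not private to these cells: maturing neutrophils express Hdc, blood progenitors Kit, and erythroid, megakaryocyte and stem cells Gata2.

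The basophil proteases Mcpt8 and Prss34 and the carboxypeptidase gene Cpa3 were at least 2-fold higher in both LSD1 tumours than in the p53 tumour, 3 of 10 genes against 3.48% of the 15240 genes tested. In bulk RNA of this kind, more cells of a type and more RNA per cell cannot be told apart. None of the 10 was at least 2-fold lower in both, against 5.38% of the genes tested. The 10 genes were chosen with earlier results of these data known, so these shares and the later ones are descriptions, not tests. Cpa3 is a protease of mast cells as well as of immature basophils. Of the other mast cell proteases among the 10, Cma1 was not well above background in tumour L3, and Tpsb2 stayed within 2-fold of the p53 tumour in both. Mcpt4, a mast cell chymase gene outside the 10, was at least 12.7-fold higher in tumour L2. Tumour L2 was on a different slide from the p53 tumour and tumour L3, so its differences cannot be told apart from the slide. No difference passed limma's test with Benjamini-Hochberg adjustment, which called 0 of 32897 probes (0%) in the whole comparison, with 1490 at an unadjusted p under 0.05. With 1 p53 tumour, the p-values assume that it varies as the LSD1 tumours do. The spread behind them is that between the LSD1 tumours, on different slides, which limma moderates towards that of all probes tested. They say nothing of mice beyond these samples. Under normexp background correction, which adds a constant of 50 to every spot and so shrinks differences of dim probes, 0 of 10 genes were 2-fold higher in both. Their directions held there, at 0.74 and 1.62 on the log2 scale for Mcpt8 in tumours L2 and L3, 0.77 and 1.58 for Prss34, and 1.55 and 0.91 for Cpa3.

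The stretches just before the starts of the 3 genes that were higher in both LSD1 tumours, and of Cma1, which was not, are shown because GATA factors, Gata2 among them, bind short motifs before many mast cell and basophil genes. Each is the 250 bases before the start in RefSeq's table of assembly GRCm38.p6, 5′ to 3′ on the gene's strand. Capitals mark GATA hexamers on either strand, meaning the letters AGATAA or the same with T first, with G last or with both. Mcpt8 lies on the minus strand at chr14:56085198-56085447, Prss34 on the plus strand at chr17:25298144-25298393, Cpa3 on the minus strand at chr3:20242182-20242431 and Cma1 on the minus strand at chr14:55944676-55944925.
Mcpt8: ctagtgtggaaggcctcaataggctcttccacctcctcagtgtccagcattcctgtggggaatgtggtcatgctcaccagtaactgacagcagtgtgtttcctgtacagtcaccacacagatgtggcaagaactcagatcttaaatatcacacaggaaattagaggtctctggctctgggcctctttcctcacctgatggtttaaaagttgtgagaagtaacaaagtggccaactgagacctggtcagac
Prss34: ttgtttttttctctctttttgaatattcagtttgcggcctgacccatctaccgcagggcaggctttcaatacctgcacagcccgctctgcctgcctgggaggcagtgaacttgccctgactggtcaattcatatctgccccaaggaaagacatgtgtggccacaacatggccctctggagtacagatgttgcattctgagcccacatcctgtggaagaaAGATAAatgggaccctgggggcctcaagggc
Cpa3: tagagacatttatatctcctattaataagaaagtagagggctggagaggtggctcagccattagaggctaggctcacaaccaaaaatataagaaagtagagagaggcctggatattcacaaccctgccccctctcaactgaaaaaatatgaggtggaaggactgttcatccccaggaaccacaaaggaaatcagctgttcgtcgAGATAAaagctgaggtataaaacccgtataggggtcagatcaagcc
Cma1: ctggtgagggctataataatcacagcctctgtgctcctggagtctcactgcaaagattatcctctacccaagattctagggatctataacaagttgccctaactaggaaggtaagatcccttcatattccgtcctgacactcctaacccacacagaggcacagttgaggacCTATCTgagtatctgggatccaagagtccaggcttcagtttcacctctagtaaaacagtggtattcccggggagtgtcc

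Prss34 and Cpa3 each held 1 AGATAA on the gene's strand, starting 31 and 46 bases before the start. In Cpa3 the TATA motif TATAAA followed at 31 bases. Cma1 held the reverse form CTATCT at 79 bases, and the Mcpt8 window held none of these hexamers, which says nothing of where factors bind. Of the 9 genes with an entry in the table, 6 had at least 1 GATA match: besides Prss34, Cpa3 and Cma1 these were Ms4a2, with 3 matches at 224, 37 and 11 bases before the start, Fcer1a and Hdc. The windows of Kit and Gata2 had none, and Tpsb2 had no entry. The 9 genes had 11 windows, since Kit and Gata2 each had more than 1, and 6 of the 11 held a GATA match. Over all 32851 windows of this length in the table, 26.5% held a match. The E-boxes CATGTG and CACGTG, bound by the mast cell factor MITF, matched on either strand in Prss34 at 100 bases and in Fcer1a at 208 bases, against 17.6% of all windows. A match is a description of the letters, not of a bound site.

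Levels are given as a percentage of the signal at the array's 75th percentile, and ± is the scanner software's own error for the spot, of which each probe here had 1 per array. It covers technical error on that array alone, since each tumour was measured once. Repeat spots of the same probe with a mean log2 level above 0 had a median SD of 0.04 on the log2 scale on each array. Dimmer ones, below a mean log2 level of -2, had a median SD between 0.15 and 0.18 over 4 or 5 probes.

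Mcpt8, a protease stored by basophils, was at 13.7% ± 1.93 in the p53 tumour, 30.6% ± 3.46 in tumour L2 and 73.7% ± 7.56 in tumour L3. The 3 values do not overlap within these errors, and the p53 tumour was the lowest. Tumour L2 was 2.24-fold and tumour L3 5.38-fold above it, which is 1.16 ± 0.26 and 2.43 ± 0.25 on the log2 scale with the spot errors combined. In the authors' deposited value table the difference in tumour L2 was 0.95, short of 2-fold. The mean difference was 1.79 with a standard error of 0.78, and limma's adjusted p was 0.892.

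Prss34, a tryptase-like protease of basophils, stood at 10.9% ± 1.69 in the p53 tumour. It was at 28.4% ± 3.29 in tumour L2 and 58.2% ± 6.04 in tumour L3. The order of the tumours was that of Mcpt8, and the folds were 2.61 and 5.35, against 2.24 and 5.38 for Mcpt8. On the log2 scale the mean difference was 1.90 with a standard error of 0.69, and limma's adjusted p was 0.892.

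Cpa3, the carboxypeptidase of mast cells and immature basophils, was not well above background in the p53 tumour, at 5.04% ± 1.27. It reached 38.9% ± 4.16 in tumour L2 and 17.9% ± 2.32 in tumour L3, so here tumour L2 was the highest. Set against the dimmest signal that counted as well above background on the p53 array, it was at least 7.29-fold higher in tumour L2 and at least 3.35-fold higher in tumour L3. Its unadjusted p of 0.0391 was the lowest of the 11 member probes tested by limma, and the adjusted p was 0.892.

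**Figure D1:**
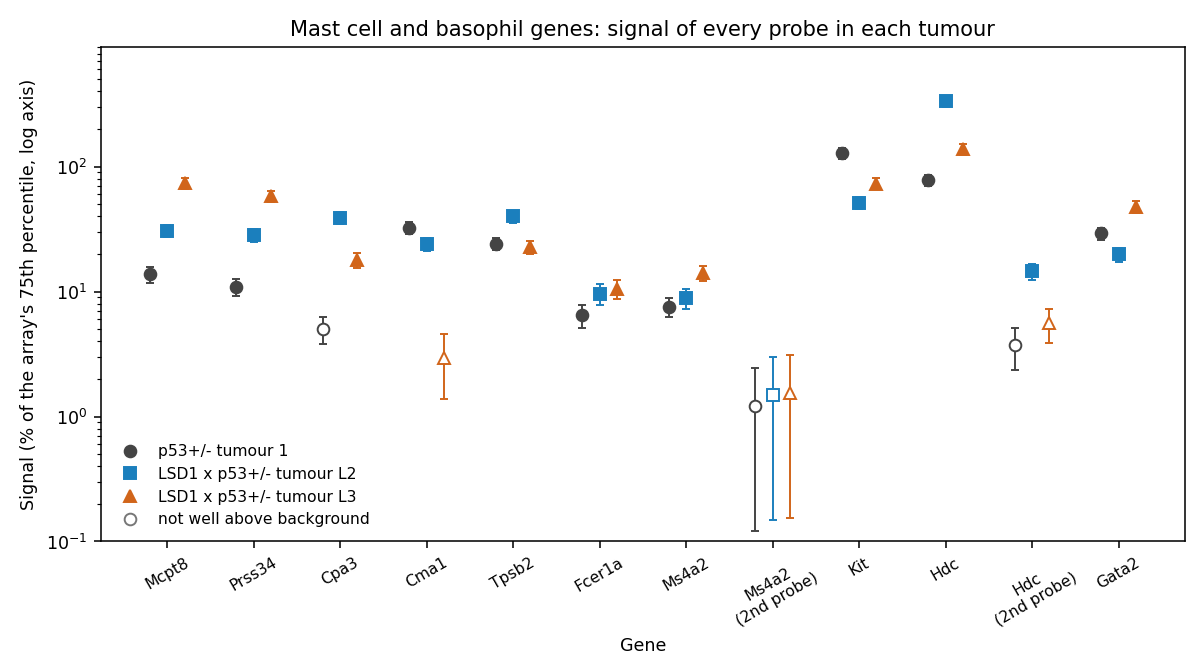
Signal of all 12 probes of the 10 genes in the 3 tumours, as a percentage of each array's 75th percentile on a log axis; bars are the scanner software's error of the spot, with lower bars that would reach 0 cut short, and open symbols were not well above background. For Mcpt8 the p53 tumour sits at 13.7% and the LSD1 tumours at 30.6% and 73.7%, while for Cma1 tumour L3 sits at 2.96%, not well above background.

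The mast cell chymase gene Cma1 ran the other way. It was at 32.5% ± 3.51 in the p53 tumour and 24.0% ± 2.91 in tumour L2, which was 1.36-fold lower. In tumour L3 it was at 2.96% ± 1.58, not well above background and at least 4.75-fold lower than in the p53 tumour. Tumour L3 was also at least 3.50-fold lower than tumour L2, so the LSD1 tumour with the higher Mcpt8 and Prss34 had the lower Cma1. Limma gave a mean difference of -1.95 on the log2 scale with a standard error of 1.51 and an adjusted p of 0.892.

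Tpsb2, the mast cell tryptase, was detected in every tumour, at 24.2% ± 2.77 in the p53 tumour, 40.0% ± 4.32 in tumour L2 and 22.8% ± 2.78 in tumour L3. Tumour L2 was 1.65-fold above the p53 tumour, and tumour L3 differed from it by -0.09 ± 0.24 on the log2 scale, less than the spot error. The sign of that difference turned under quantile normalization, at 0.08, and under median scaling, at 0.11. Limma's adjusted p was 0.951.

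The subunits of the IgE receptor were dim in all tumours. Fcer1a, the chain that binds IgE, was at 6.48% ± 1.36 in the p53 tumour, 9.65% ± 1.80 in tumour L2 and 10.6% ± 1.83 in tumour L3. Both LSD1 tumours lay above the p53 tumour, by 0.57 ± 0.40 and 0.70 ± 0.39 on the log2 scale, under 2-fold and under 2 spot errors. The adjusted p by limma was 0.892.

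Ms4a2, the signal-amplifying chain of the receptor, had 2 probes. The brighter read 7.52% ± 1.30 in the p53 tumour, 8.89% ± 1.63 in tumour L2 and 14.1% ± 1.95 in tumour L3. Tumour L2 could not be separated from the p53 tumour, with a difference of 0.24 ± 0.36 on the log2 scale that was -0.02 under normexp, and tumour L3 was 1.88-fold higher. The second probe, at 1.21%, 1.48% and 1.55% in the same order, was not well above background on any array and gives no comparison. Limma's adjusted p for the brighter probe was 0.903.

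Kit, the stem cell factor receptor of mast cells and blood progenitors, was lower in both LSD1 tumours. It was at 128% ± 12.9 in the p53 tumour, 51.4% ± 5.34 in tumour L2 and 73.0% ± 7.45 in tumour L3. The folds were 2.49 lower in tumour L2 and 1.75 lower in tumour L3, and limma's adjusted p was 0.892. In the authors' deposited value table both differences passed 2-fold, at -1.53 and -1.18 on the log2 scale. Kitl, the gene of its ligand, was read by 3 probes that disagreed in part. Its brightest was 1.33-fold lower in tumour L2 and 1.08-fold higher in tumour L3, the next was 1.42- and 1.73-fold lower, and the third was at least 1.80- and 1.81-fold lower.

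Hdc, the histidine decarboxylase that makes histamine, was read by 2 probes. The brighter gave 78.3% ± 7.90 in the p53 tumour, 336% ± 33.6 in tumour L2 and 139% ± 13.9 in tumour L3. Tumour L2 stood 4.29-fold and tumour L3 1.77-fold above the p53 tumour, with a limma adjusted p of 0.892. The dimmer probe was at 3.72% ± 1.36 in the p53 tumour and 5.59% ± 1.70 in tumour L3, not well above background in either. In tumour L2 it was well above it, at 14.5% ± 2.07, at least 2.72-fold above the p53 tumour and so in the same direction. Like Cpa3 and unlike Mcpt8 and Prss34, Hdc was highest in tumour L2.

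Gata2 split the LSD1 tumours. It was at 29.2% ± 3.15 in the p53 tumour, 19.8% ± 2.48 in tumour L2 and 47.9% ± 5.01 in tumour L3. Tumour L2 was thus 1.47-fold below and tumour L3 1.64-fold above the p53 tumour. Tumour L3 was 2.41-fold higher than tumour L2. The mean difference was 0.08 on the log2 scale with a standard error of 0.78, limma's adjusted p was 0.992, and the sign of the mean turned in the authors' deposited value table, at -0.21.

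Over the 10 genes, 6 were higher in both LSD1 tumours by sign, 2 (Kit and Cma1) were lower in both, and Tpsb2 and Gata2 differed in sign between them. Of all 15240 genes tested, 38.9% were higher in both by sign and 27.8% lower in both. The count of 6 was between 5 and 7 under the other scalings, with Ms4a2 and Tpsb2 crossing 0. The median difference was 0.65 in tumour L2 and 0.77 in tumour L3, beside 0.05 and 0.16 for all genes tested. Both comparisons share the p53 tumour, so that a low or high value in it moves both. In tumour L2, 4 of 10 genes were at least 2-fold higher, against 11.7% of all genes tested, and 1 was at least 2-fold lower, against 11.5%. In tumour L3, 3 of 10 were at least 2-fold higher, against 15.2%, and 1 was at least 2-fold lower, against 11.5%.

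Several of the genes also separated the LSD1 tumours from each other. Of the 10, 6 were at least 2-fold apart between them, against 25.1% of all genes tested, and 3 under normexp. Mcpt8, Prss34 and Gata2 were the higher ones in tumour L3, by 2.41-, 2.05- and 2.41-fold. Cpa3, Hdc and Cma1 were higher in tumour L2, Cpa3 by 2.17-fold, Hdc by 2.42-fold and Cma1 by at least 3.50-fold. Tumour L2 was on a different slide and scan from tumour L3 and the p53 tumour. Slide and tumour therefore cannot be told apart in this contrast, nor in any difference between tumour L2 and the p53 tumour. Within the slide shared by the p53 tumour and tumour L3, the folds of Mcpt8 (5.38), Prss34 (5.35) and Cpa3 (at least 3.35) were those given above.

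**Figure D2:**
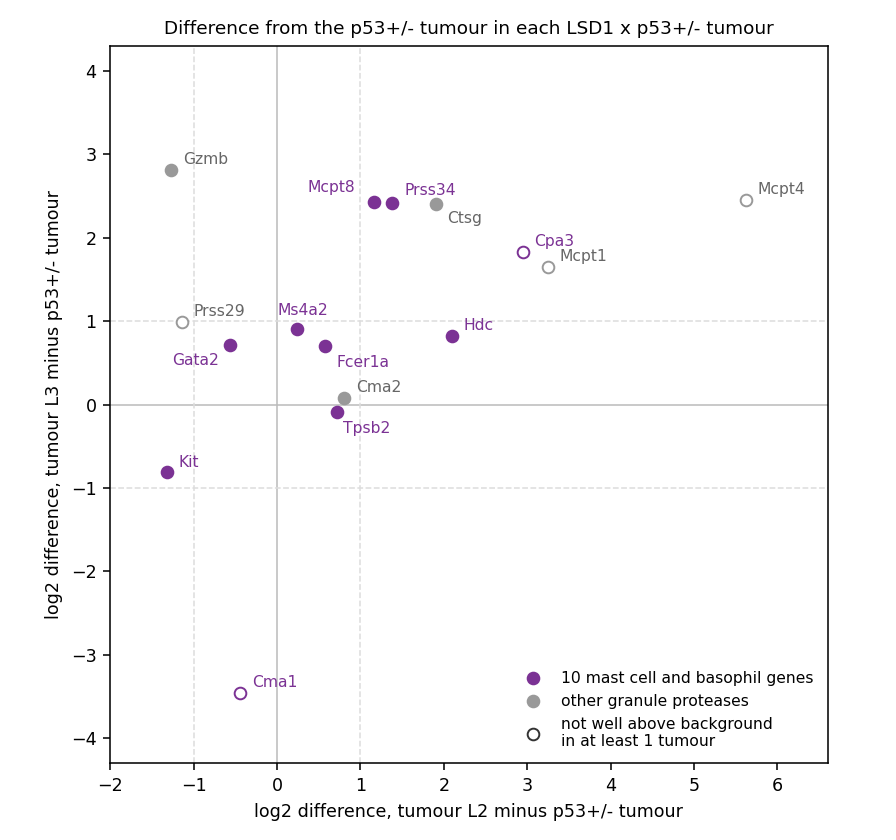
Each gene's log2 difference from the p53 tumour in tumour L2 (horizontal) and tumour L3 (vertical), for the 10 genes and the other granule proteases well above background in at least 1 tumour; dashed lines mark 2-fold, and open symbols were not well above background in at least 1 tumour, so their distance is no measured fold. Mcpt8 and Prss34 lie together at 1.16 and 1.38 across and 2.43 and 2.42 up, Cpa3 farther right, and Cma1 at the bottom.

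Mcpt8 and Cma1 lie in the chymase and granzyme gene cluster of chromosome 14, and Prss34 and Tpsb2 lie in the tryptase cluster of chromosome 17. In the chromosome 14 cluster 15 protease genes had a named probe, and 8 of them, Mcpt2, Mcpt9 and the granzyme genes Gzmc to Gzmg and Gzmn, were not well above background in any tumour. Mcpt4, a chymase of connective tissue mast cells, was at 67.8% in tumour L2, at least 12.7-fold above the p53 tumour, and was not well above background in the p53 tumour, at 1.37%, or in tumour L3, at 7.51%. Mcpt1, a chymase of mucosal mast cells, was likewise well above background in tumour L2 alone, at 12.0% and at least 2.26-fold above the p53 tumour. Cma1, by contrast, was 1.36-fold lower in tumour L2 than in the p53 tumour.

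Ctsg, the next protease gene after Mcpt8, encodes cathepsin G of neutrophil precursors and some mast cells. It was at 95.9% in the p53 tumour, 358% in tumour L2 and 508% in tumour L3. Both LSD1 tumours were higher, by 3.74- and 5.30-fold. Gzmb, the granzyme of cytotoxic cells at the far end of the cluster, was 2.41-fold lower in tumour L2 and 7.01-fold higher in tumour L3. The protease genes of this cluster thus did not share 1 direction. In the tryptase cluster Tpsg1 was not well above background in any tumour, and Prss29 was at least 1.84-fold lower in tumour L2 than in the p53 tumour and 1.99-fold higher in tumour L3. Near-identical proteases of these families can share probe sequence, so a probe may also read a relative.

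**Figure D3:**
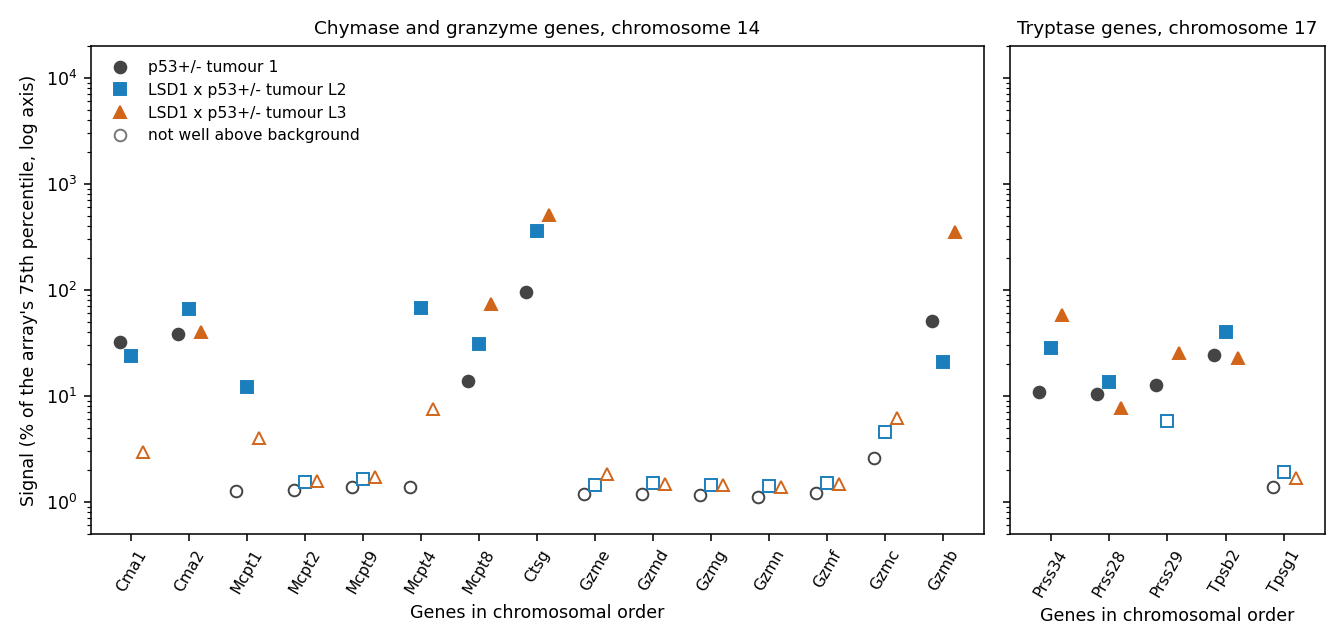
Signal of the protease genes of the chromosome 14 and chromosome 17 clusters, as a percentage of each array's 75th percentile on a log axis, with genes in chromosomal order and open symbols where a probe was not well above background. Mcpt4 stands out at 67.8% in tumour L2, and Mcpt8 and Ctsg have both LSD1 tumours above the p53 tumour.

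Of 18 other surface genes of these cells, 14 were well above background in at least 1 tumour. Cd200r3, a receptor of basophils and mast cells, Mrgprb1 and Mrgprb2, receptors of connective tissue mast cells, and Ptgdr2, the prostaglandin D2 receptor of basophils and Th2 cells, were not well above background in any tumour. These 4 surface genes thus gave no usable signal. Mcpt8, Prss34, Fcer1a and the brighter Ms4a2 probe were well above background in all 3 tumours. Of the 14 surface genes well above background in at least 1 tumour, 0 were at least 2-fold higher in both LSD1 tumours and 0 at least 2-fold lower in both (1 in the authors' deposited value table). The shares over all genes tested were 3.48% and 5.38%, so counts of 0 in a list this short are near them. Il1rl1, the receptor for interleukin 33, was at 118% in the p53 tumour, 131% in tumour L2 and 273% in tumour L3 on its brightest probe. Its other probes disagreed in tumour L3, at least 4.10-fold higher on one and at least 1.39-fold lower on the other. Il3ra and Csf2rb, the chains of the interleukin 3 receptor, were within 1.53-fold of the p53 tumour on each of their probes.

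Of 16 genes that carry the signal of the IgE receptor, none was higher in both LSD1 tumours and 10 were lower in both by sign, between 7 and 12 under the other scalings, with 1 of 16 higher in both under median scaling. These counts stand beside 38.9% higher and 27.8% lower in both over all genes tested. At least 2-fold lower in both was 1 of 16, near the 5.38% of all genes tested, and 0 under normexp and under median scaling. It was Lat2, an adaptor of mast and B cells, at 191% in the p53 tumour, 32.8% in tumour L2 and 89.2% in tumour L3. Its dimmer probe was at least 3.64-fold lower in tumour L2 and 1.59-fold lower in tumour L3. Syk, Btk and Plcg2, kinases and a phospholipase that B cells also use, were 3.59-, 3.44- and 5.11-fold lower in tumour L2 and within 1.28-fold in tumour L3 on their brightest probes, while the dimmer Syk probe was 1.57-fold lower in tumour L3. The B cell markers were lower too, with 10 of 10 lower in both LSD1 tumours (9 under median scaling), medians of -2.66 and -0.99 on the log2 scale and summed signals of 27536% in the p53 tumour against 4057% and 14750.5%. The part of these cells in the values of Lat2, Syk, Btk and Plcg2 was not tested.

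Of 12 genes for making and storing mediators, 1 was higher in both LSD1 tumours by sign and 4 were lower in both, with 1 to 3 and 4 to 5 under the other scalings. The 33.3% lower in both was near the 27.8% of all genes tested, and the 8.33% higher in both was below their 38.9%. The higher one was Cd63, a granule membrane protein, at 1.63- and 1.53-fold. Slc18a2, which loads histamine into granules, was at 20.7%, 22.6% and 18.6% in the p53 tumour, tumour L2 and tumour L3, so it stayed nearly level where Hdc was 4.29-fold higher in tumour L2. Ddc and Tph1, enzymes of serotonin synthesis, were lower in both LSD1 tumours on their brightest probes. Ddc was at least 3.43-fold lower in tumour L2 and 2.09-fold lower in tumour L3, and Tph1 at least 1.25- and 1.26-fold lower. Their other probes were not well above background in any tumour and give no comparison.

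Among the cytokines of these cells, Il4 was at 14.2% in the p53 tumour, 647% in tumour L2 and 22.9% in tumour L3. Tumour L2 was 45.6-fold and tumour L3 1.62-fold above the p53 tumour. Il13 was well above background in tumour L2 alone, at least 2.57-fold higher than in the p53 tumour. Il3, Il5, Il6, Il9, Csf2 and Areg were not well above background in any tumour. T cells also make Il4 and Il13, and in tumour L2 the T cell list had a median difference of 1.73 and a summed signal of 26533%, against 9805% in the p53 tumour and 5523% in tumour L3. The markers of innate lymphoid and Th2 cells, which include Il4 and Il13, summed to 15022% there, against 1658% and 751%. Their part in these cytokine values, and in Mcpt4, was not tested.

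Genes of other cells differed beside single members of the 10. Hdc is also a gene of maturing neutrophils, and of 15 genes of neutrophil precursors 13 were higher in both LSD1 tumours by sign under all 5 scalings, 10 of them by at least 2-fold (4 to 11 under the other scalings). Over all genes tested, 38.9% were higher in both by sign and 3.48% by at least 2-fold. The 15 genes had median differences of 1.39 and 1.24, and their summed signal was 26274% in the p53 tumour, 41569.8% in tumour L2 and 38036% in tumour L3. Ms4a3, a gene of granulocyte precursors that basophil precursors share, was at 22.8%, 97.0% and 105% in that order, 4.25- and 4.61-fold higher. Prtn3, the proteinase of neutrophil precursors, was 2.65- and 3.92-fold higher. All 15 genes were well above background in every tumour, and their part in the values of Hdc, Ctsg, Mcpt8 or Prss34 was not tested.

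Gata2 was higher in tumour L3, where erythroid genes were higher too. All 13 erythroid genes were higher there by sign (10 to 13 under the other scalings), 10 of them by at least 2-fold, with a median of 1.48 and a summed signal of 170000.3% against 129691% in the p53 tumour. Over all genes tested, 15.2% were at least 2-fold higher in tumour L3. In tumour L2 the median of the erythroid genes was -0.39 and their sum 94247%. Klf1, the erythroid master factor, was 1.12-fold lower in tumour L2 and 4.09-fold higher in tumour L3. The brighter probe of Zfpm1, the partner of GATA factors, was 1.14-fold lower and 3.39-fold higher, and its other probe was higher in both, by 1.58- and 2.67-fold. Mitf, the mast cell factor that works with Gata2, was at 101%, 116% and 72.9% in the p53 tumour, tumour L2 and tumour L3 on its brightest probe, and 2.51- and 2.27-fold lower in tumour L3 on the others. The part of erythroid cells in the Gata2 values was not tested.

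Kit was lower together with some genes of stem and progenitor cells. Of 14, 7 were lower in both LSD1 tumours by sign (6 to 9 under the other scalings) and 3 were higher in both (0 to 3). The shares over all genes tested were 27.8% lower and 38.9% higher in both. Flt3, the receptor of lymphoid progenitors and dendritic cells, was 6.39-fold lower in tumour L2 and 4.52-fold lower in tumour L3. It also belongs to a list of 10 dendritic cell genes, of which 8 were lower in both LSD1 tumours by sign. The medians of that list were -1.41 in tumour L2 and -0.79 in tumour L3. Slamf1 was 2.95- and 3.49-fold lower on its brightest probe, and its other probe was not well above background in any tumour. Cd34, in contrast, was at 183%, 255% and 139% in the p53 tumour, tumour L2 and tumour L3. The summed signal of the stem and progenitor list was 2858%, 1601% and 2766% in that order, and all but Mecom were well above background somewhere. The part of these cells in the Kit values was not tested.

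Genes of eosinophils, the other granulocytes of allergic inflammation, were mixed. Prg2, the major basic protein, was 3.29-fold lower in tumour L2 and 3.94-fold lower in tumour L3, and the chemokine receptor gene Ccr3, which basophils also express, was 2.97- and 2.81-fold lower. Prg3 was 3.16-fold lower and at least 26.5-fold lower. Of 10 eosinophil genes 6 were lower in both by sign, also under the other scalings, and 5 by at least 2-fold (3 to 5), while 3 were at least 2-fold higher in tumour L2 and 1 in tumour L3. Over all genes tested, 27.8% were lower in both by sign and 5.38% by at least 2-fold. The shares at least 2-fold higher were 11.7% in tumour L2 and 15.2% in tumour L3. The ribonuclease genes Ear1 and Ear2 were among the eosinophil genes higher in tumour L2: Ear2, shared with monocytes, was at 788% in the p53 tumour, 1733% in tumour L2 and 474% in tumour L3. One Ear6 probe was 4.76-fold higher in tumour L2, while the brighter was not higher there, with a log2 difference of -0.35. The summed signal of the list was 1757% in the p53 tumour, 2652% in tumour L2 and 1603% in tumour L3. None of the genes in these lists passed limma's adjusted threshold.

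**Figure D4:**
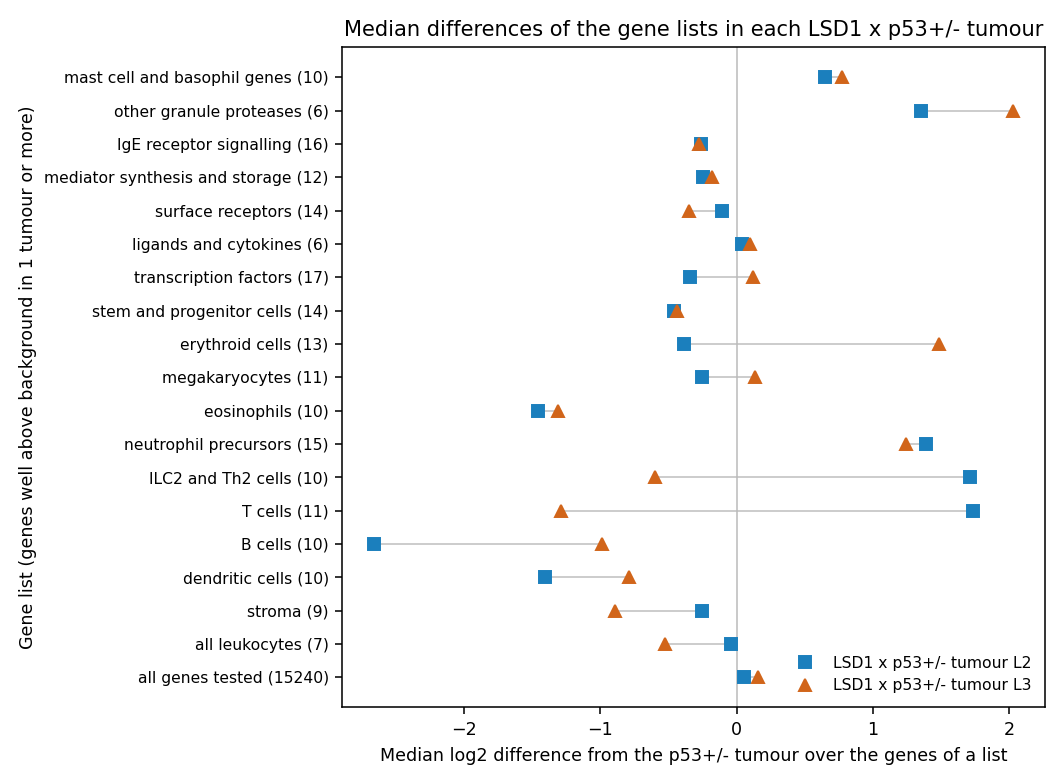
Median log2 difference from the p53 tumour over each gene list in tumour L2 (squares) and tumour L3 (triangles), with the number of genes well above background in at least 1 tumour in brackets. The 10 mast cell and basophil genes sit at 0.65 and 0.77. Other lists also have close medians, such as neutrophil precursors (1.39 and 1.24) and IgE receptor signalling (-0.26 and -0.28). Erythroid cells (-0.39 and 1.48) and T cells (1.73 and -1.29) differ between the LSD1 tumours. A close median does not mean that single genes matched. Among the 10, Mcpt8, Prss34 and Gata2 stood higher in tumour L3, while Cpa3, Hdc and Cma1 stood higher in tumour L2.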

How the data were processed

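RNA of 3 splenic tumours was read on 3 single-colour arrays. Spots were quantified with Agilent Feature Extraction 11.5.1.1 (submitters' processing notes). The deposited intensity is the processed signal, background-subtracted and detrended within each array, per the file headers. The array design's build is mm9, so no array coordinate was used. A deposited table of the authors holds the same intensities times 1 factor per array (1.06, 0.779 and 0.902), whose basis is not stated.

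Outlier spots were left out, spots of a probe averaged, and the signal divided by the array's 75th percentile (608, 712 and 554) and taken as log2. Of 56605 probes, 32994 were named through RefSeq accessions (GRCm38.p6). A gene stood for its probe of highest mean signal. The test was limma 3.58.1 (lmFit and eBayes, two-sided, R 4.3.3) over probes with a signal well above background somewhere. A check on simulated data required only that the mean estimated difference lie near the planted one, not that any probe be called. The share of spots well above background was 55.6%, 52.8% and 51.5%, none was saturated, and the number of arrays limits the precision. A printed fold against a dim probe uses the array's lowest signal well above background, or the probe's own value where that is higher. The counts and shares at 2-fold or more use the plain difference instead. They require only the brighter side to be well above background. The members and gene lists were chosen with earlier results of these data known. From each list up to 4 genes of the largest mean difference could be named, with those set beside a member and, chosen after their values were seen, single genes that illustrate a list.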

Additional observations from a re-analysis of the deposited data

How the results depend on the processing

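Limma called 0 probes under every scaling, filter and probe choice tried, with the unadjusted p under 0.05 reached by 568 genes with 1 probe for each gene and by up to 5232 probes without a filter. Of those under 0.05, 27.1% were higher in the LSD1 tumours, against 42.8% under normexp, 10.2% in the authors' value table and 36.8% under median scaling. Leaving out an LSD1 tumour in the limma test was not run, since 1 array against 1 leaves no residual degree of freedom. No paired analysis was possible because the groups share no replicate number. The count of 3 genes at least 2-fold higher in both LSD1 tumours (Cpa3, Mcpt8, Prss34) was 0 under normexp, and between 2 and 4 under the other scalings. Taken in 1 LSD1 tumour alone, a choice made after seeing the data, it was 3 to 4. The count of 0 genes at least 2-fold lower in both was 1 (Kit) in the authors' value table, and 1 with either LSD1 tumour left out, Cma1 without tumour L2 and Kit without tumour L3. Between the LSD1 tumours, the count of 6 genes that lay 2-fold or more apart was 3 under normexp (Cma1, Gata2, Hdc). Normexp's added constant of 50 is close in size to the signal of the dim probes. The mean difference of Gata2, 0.08, turned to -0.21 in the authors' value table; the cause was not tested. It was -0.56 without tumour L3 and 0.71 without tumour L2 or with the slide as a block. That of Tpsb2, 0.32, was -0.09 without tumour L2 and with the slide as a block. The mean differences of the other 8 genes kept their sign under all of these alternatives. Taking the slide as a block leaves only tumour L3 against the p53 tumour, so it repeats the result without tumour L2. The authors' table moved the median of all genes to -0.16 in tumour L2 and -0.20 in tumour L3, and median scaling to 0.08 and 0.36. Fcer1a, Ms4a2, Cpa3 in the p53 tumour and Cma1 in tumour L3 lay near the background, which limits their differences.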
